A study of Mus musculus with 59 samples.

Results

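The genes of the NMDA and kainate classes of ionotropic glutamate receptor were examined in embryoid bodies containing spinal motor neurons. The 10 members were chosen by gene symbol, with earlier results of these data known. They were the NMDA receptor subunit genes Grin1, Grin2a, Grin2b, Grin2c and Grin2d and the kainate receptor subunit genes Grik1, Grik2, Grik3, Grik4 and Grik5. All 10 were among the 19613 genes measured. The embryoid bodies came from the mouse embryonic stem cell line that the labels call HBG3 HB9 and the published text HGB3, in which a fluorescent reporter marks motor neurons, and were exposed for 24 h to mouse serum. On 29 Affymetrix exon arrays the serum came from hemizygous carriers of a mutant human SOD1 transgene that causes a form of amyotrophic lateral sclerosis, and on 30 arrays from their non-carrier littermates. The serum donors of both groups were F1 progeny of C57BL/6 and SJL, and the labels give 9 weeks for 53 arrays and 10 weeks for 6, worded as a time point of cultures and read here as the age of the donors. The exposed cells of both groups were of the same line and did not carry the transgene, so the comparison is one of sera and not of mutant and normal neurons. Embryoid bodies are mixtures of cells, in which fewer cells of a type and less RNA per cell cannot be told apart.

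Ionotropic glutamate receptors are tetrameric cation channels opened by glutamate. NMDA receptors need the glycine-binding subunit encoded by Grin1 together with glutamate-binding subunits encoded by Grin2a to Grin2d, and they pass calcium once depolarization lifts a magnesium block. In the rodent nervous system Grin2b and Grin2d are prominent before birth, whereas Grin2a and Grin2c rise later. Kainate receptors are built from the subunits GluK1 to GluK3, encoded by Grik1 to Grik3, which can form channels alone, and from the high-affinity subunits GluK4 and GluK5, encoded by Grik4 and Grik5, which need one of the former as a partner. Excess calcium entry through glutamate receptors is one of the processes studied in motor neuron disease.

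Promoter sequences of 7 members were held by the RefSeq table of GRCm38.p6, and Grin2a, Grin2b and Grik1 had no entry in it. The 250 bases before the annotated start are shown for Grik3 and Grik4, whose levels deviated together from array to array, and for Grik2, whose level deviated the other way (values below in the account of array-to-array variation). The windows are chr4:125490446-125490695 on the plus strand for Grik3, chr9:42944372-42944621 on the minus strand for Grik4 and chr10:49788755-49789004 on the minus strand for Grik2. Letters are 5′ to 3′ in the direction of the gene, and capitals mark the GC box GGGCGG on either strand, a motif that SP1 family factors are known to bind.
Grik3: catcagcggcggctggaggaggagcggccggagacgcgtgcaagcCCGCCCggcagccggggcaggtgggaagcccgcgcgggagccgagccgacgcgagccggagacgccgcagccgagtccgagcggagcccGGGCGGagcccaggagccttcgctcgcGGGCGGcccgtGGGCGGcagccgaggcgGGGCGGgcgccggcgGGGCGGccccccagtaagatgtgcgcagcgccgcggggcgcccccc
Grik4: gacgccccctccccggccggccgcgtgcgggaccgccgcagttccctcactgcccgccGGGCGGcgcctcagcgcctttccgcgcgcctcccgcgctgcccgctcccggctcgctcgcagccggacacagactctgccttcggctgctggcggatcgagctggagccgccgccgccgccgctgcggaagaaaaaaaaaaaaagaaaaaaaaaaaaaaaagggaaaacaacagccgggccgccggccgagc
Grik2: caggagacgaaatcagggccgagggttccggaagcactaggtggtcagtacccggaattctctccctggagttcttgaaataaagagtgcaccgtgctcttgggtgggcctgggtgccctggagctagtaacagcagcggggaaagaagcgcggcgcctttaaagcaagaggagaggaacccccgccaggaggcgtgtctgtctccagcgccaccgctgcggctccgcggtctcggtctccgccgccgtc
The Grik3 window held 6 GC boxes, the Grik4 window 1 and the Grik2 window none. Among the other members in the table, Grin2c had 3 and Grik5 had 2, and Grin1 and Grin2d had none. At least 1 GC box occurred in 32.7% of the 32851 windows of the same length in the table, against 4 of 7 members. The G and C content was 82% for Grik3, 69.6% for Grik4 and 62.8% for Grik2, all above the median of 52.4% over the table. The Grik3 window held 42 CpG dinucleotides, the Grik4 window 36 and the Grik2 window 20, against a median of 6. These matches describe the letters in the windows and were not tied to any factor.

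Median intensity per array lay between 151 and 183, so no array was far dimmer than the rest. The labels name no batch, and the 59 arrays were parted by their titles into 9 runs, called motorneuron, HB9MNs, A to F and 10wk, each with arrays of both sera. Titles in runs A to F and 10wk begin with HB9EBs, and those in motorneuron and HB9MNs with the name of the run. The study's methods describe individual serum samples assayed on several batches of differentiated embryoid bodies, although the labels tie no array to a mouse, a well or a batch, so p-values measure the spread between arrays. Run C, with 11 arrays, may hold more than 1 batch, and values with it parted into 2 blocks by its order in the sample list are given where they matter. Grubbs' test on the mean correlation of each array with its run called 2 arrays, 1 exposed to carrier serum in run E and 1 exposed to non-carrier serum in run C, and values without both are given where they matter. All 6 measured motor neuron markers and all 6 measured pan-neuronal markers were above the background band, which is the 5th to 95th percentile of the mean level of 1021 olfactory receptor genes. Of the pluripotent cell markers 3 of 7 were above it, and of the mesoderm, endoderm and blood cell markers 3 of 8.

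All 10 subunit genes had a mean log2 intensity above the upper end of that band, 6.31, as did 66.7% of all genes. Grin2a lay closest to it, with a mean of 6.49 and 23 of 59 arrays at or below 6.31. For the other 9 members no array was at or below that value. Against a wider band that ends at 7.29, the 99th percentile, Grin2a and Grik1 were inside and the other 8 members above.

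With carrier serum, none of the 10 subunit genes passed an adjusted p of 0.05 in limma with the run as a block, whereas 2.33% of all genes did. The kainate receptor genes Grik3, Grik4 and Grik5 had the largest differences among the members, all toward lower levels with carrier serum. They were the 3 of 10 members that were lower at an unadjusted p under 0.05, a share to be read against 8.68% of all genes. No member was higher at that level. The median difference was 0.0015 on the log2 scale over the 10 members, 0.023 over the 5 NMDA receptor genes and -0.051 over the 5 kainate receptor genes, against 0.016 over all genes.

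Grik3 encodes GluK3, a kainate receptor subunit of low glutamate sensitivity. Its log2 intensity was 8.25 at the lowest, 8.95 at the median and 9.38 at the highest of the 29 carrier arrays, and 8.60, 9.04 and 9.37 on the 30 non-carrier arrays. The ranges overlapped across runs, but in 5 of 9 runs (A, B, E, F and 10wk) every carrier array was below every non-carrier array, as in at least 5 runs for 0.882% of all genes. In run F, for example, the carrier arrays spanned 8.95 to 9.01 and the non-carrier arrays 9.11 to 9.17. Across runs the estimated difference was -0.099 (SE 0.032), or -6.61% on the linear scale, with a 95% interval from -0.163 to -0.034, an unadjusted p of 0.00344 and an adjusted p of 0.0829. The carrier mean was lower in 7 of 9 runs, and 22 of 29 carrier arrays were below the non-carrier mean of their run.

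The size of the Grik3 difference depended on the run. It was -0.39 in run E, -0.18 in run B, -0.16 in run 10wk and -0.15 in run F, and it was 0.029 in HB9MNs and 0.060 in run C. With run C parted, the first block of 3 carrier and 2 non-carrier arrays gave -0.10 and the second of 3 and 3 gave 0.17, and the estimate over all runs was -0.10 (adjusted p 0.0570). In run E the carrier arrays stood at 8.67, 8.74 and 8.25, the last being the array that Grubbs' test called, and the non-carrier arrays at 8.79, 8.99 and 9.05. Thus the run with the largest difference also held an array that stood apart, though its other carrier arrays too were below all non-carrier arrays of the run. Without run E the Grik3 difference was -0.065 (adjusted p 0.192), without run C it was -0.13 (adjusted p 0.00654), and without the arrays called by Grubbs' test it was -0.079 (adjusted p 0.0857). The test of whether the serum difference varied between runs gave an unadjusted p of 0.0262 and an adjusted p of 0.554 for Grik3.

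Grik4 encodes GluK4, a high-affinity kainate receptor subunit. Its log2 intensity was 8.36, 8.69 and 9.05 at the lowest, median and highest carrier array and 8.52, 8.76 and 9.13 at the corresponding non-carrier arrays. Levels with both sera overlapped, and in 1 run, A, every carrier array was below every non-carrier array. The difference was -0.066 (SE 0.020, 95% interval from -0.106 to -0.026), or -4.48%, with an unadjusted p of 0.00169 and an adjusted p of 0.0580. It was smaller than that of Grik3 but more even over the 9 runs, from -0.14 in run E to 0.0026 in HB9MNs. With run C parted, the Grik4 difference was -0.19 in the first block and 0.030 in the second. In run E the carrier arrays stood at 8.62, 8.71 and 8.36, the last being the array that Grubbs' test called. The non-carrier arrays of that run stood at 8.64, 8.74 and 8.72. Over all runs, 24 of 29 carrier arrays were below the non-carrier mean of their run. Grik4 passed the adjusted threshold under 6 of 23 alternative settings, among them centring of the arrays on their median (-0.073, adjusted p 0.0352) and leaving out HB9MNs (-0.071, adjusted p 0.0424), and Grik3 passed under 3. Olig2, Mnx1, Isl1 and Lhx3 are genes of motor neuron progenitors and motor neurons. Adding them as covariates to the fit with the run reduced the differences to -0.015 for Grik4 (adjusted p 0.573) and -0.054 for Grik3 (adjusted p 0.162). Of these covariates Olig2 (-0.085), Lhx3 (-0.086) and Isl1 (0.053) themselves differed between sera at an unadjusted p under 0.05. Mnx1 (-0.035) did not, and none passed after adjustment. Fits with these covariates thus compare the sera at like levels of genes that may themselves move with the serum.

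Grik5 encodes GluK5, the other high-affinity subunit. Its log2 intensity was 8.64, 9.21 and 9.47 at the lowest, median and highest carrier array and 8.95, 9.22 and 9.45 at the corresponding non-carrier arrays, so that the medians were nearly equal. Within runs the difference was -0.051 (SE 0.023, 95% interval from -0.098 to -0.0043), or -3.47%, with an unadjusted p of 0.0328 and an adjusted p of 0.203. In run E the Grik5 difference was -0.14. The carrier arrays there stood at 9.02, 9.06 and 8.64, the last again being the array that Grubbs' test called. The non-carrier arrays of that run stood at 8.95, 9.06 and 9.13, so the other 2 carrier arrays were within their range. Grik4 and Grik5 were lower with carrier serum in 8 of 9 runs each, as were 5.45% of all genes in at least 8 runs. The exception was HB9MNs for Grik4 and run B, at 0.055, for Grik5. These counts take run C as 1 run. With it parted, the Grik5 difference was -0.14 in the first block and -0.023 in the second. The same 4 covariates turned the Grik5 difference to 0.0050 (adjusted p 0.880).

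Grik1 and Grik2 encode the kainate receptor subunits GluK1 and GluK2, and neither passed the test of the serum difference. Grik1 spanned 6.43 to 7.403 on carrier arrays (median 7.06) and 6.38 to 7.37 on non-carrier arrays (median 6.98), with a difference of 0.038 (95% interval from -0.024 to 0.101, adjusted p 0.471). With array weights the Grik1 difference was 0.082 and passed (adjusted p 0.0325). Grik2 spanned 7.18 to 8.64 (median 8.06) and 7.05 to 8.52 (median 8.05), with a difference of 0.0051 (95% interval from -0.065 to 0.076, adjusted p 0.943). Both intervals include differences toward higher levels as large as the one estimated for Grik5 toward lower levels, so similarity between the sera was not shown.

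**Figure D1:**
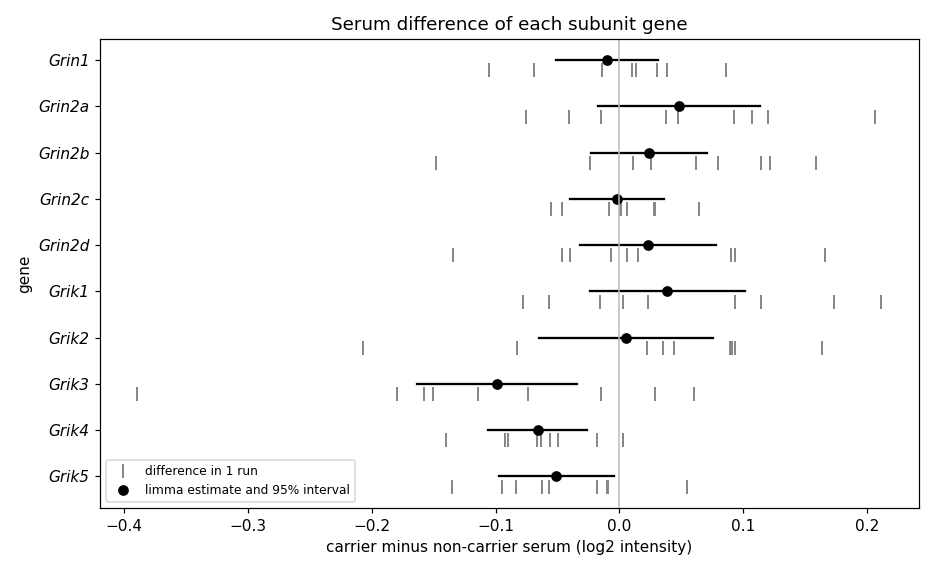
Carrier minus non-carrier difference in log2 intensity (x axis) of the 10 subunit genes (y axis), with the limma estimate and its 95% interval as points and lines and the difference within each of the 9 runs as ticks. The intervals of Grik3, Grik4 and Grik5 lie below 0, and those of the other 7 genes include it.

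The intervals of Grik3, Grik4 and Grik5 in the plot of serum differences are not adjusted for the number of genes, and none of the 3 genes passed after adjustment. For all 3 genes the ticks of single runs spread over more than the interval, most widely for Grik3.

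None of the 5 NMDA receptor genes passed the test of the serum difference, though Grin2d passed with the 4 covariates added (0.089, adjusted p 0.0135). Grin1, the gene of the obligatory subunit, spanned 6.86 to 7.98 on carrier arrays (median 7.44) and 7.14 to 8.01 on non-carrier arrays (median 7.44), and its difference was -0.010 (SE 0.020, 95% interval from -0.051 to 0.031, adjusted p 0.792). Grin2c spanned 7.02 to 7.69 and 7.03 to 7.68, with medians of 7.37 and 7.35, and its difference was -0.0020 (95% interval from -0.040 to 0.036, adjusted p 0.958). The intervals of both genes stayed within 0.051 of 0.

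Grin2b, which encodes the main embryonic partner of the Grin1 product, spanned 8.38 to 9.51 on carrier arrays (median 8.96) and 8.41 to 9.40 on non-carrier arrays (median 9.00). In 4 of 9 runs (HB9MNs, B, D and 10wk) every carrier array was above every non-carrier array, as in at least 4 runs for 1.18% of all genes. In run D the carrier arrays spanned 9.09 to 9.14 and the non-carrier arrays 9.00 to 9.05. In run C, the largest, the difference was the other way, -0.15. With run C parted, it was -0.18 in the first block and -0.10 in the second. Over all runs the Grin2b difference was 0.024 (SE 0.023, 95% interval from -0.023 to 0.071, adjusted p 0.549). Under the 23 alternative settings it stayed positive, from 0.013 to 0.080, with an adjusted p of 0.0613 at the lowest. Grin2b had the lowest p of the members for a serum difference that varied between runs, 0.0149 unadjusted and 0.501 adjusted. None of the 10 members passed that test after adjustment, which 0.127% of all genes did.

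Grin2d and Grin2a had differences of 0.023 (95% interval from -0.032 to 0.078, adjusted p 0.633) and 0.048 (95% interval from -0.018 to 0.114, adjusted p 0.388). Grin2d spanned 7.37 to 8.12 on carrier arrays (median 7.71) and 7.44 to 8.31 on non-carrier arrays (median 7.69). Grin2a spanned 5.97 to 7.22 (median 6.37) and 6.04 to 7.09 (median 6.32), and part of these arrays were within the background band. For both genes the sera overlapped over nearly the whole range.

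Differences between runs were far larger than those between sera. All 10 members passed the test of a difference between runs, with adjusted p from 7.8e-22 for Grik2 to 7.4e-10 for Grin2d, but so did 94% of all genes. The run accounted for 67.0% of the variance of Grik5, the lowest share of the 10, to 90.5% of that of Grik2. The serum accounted for 5.0% of the variance of Grik3, 4.21% of Grik4 and 3.06% of Grik5, and under 1% for each of the other 7 genes. Values were not renormalized. The mean log2 intensity over all genes was 7.46 in motorneuron, against 7.27 to 7.33 in the other runs.

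**Figure D2:**
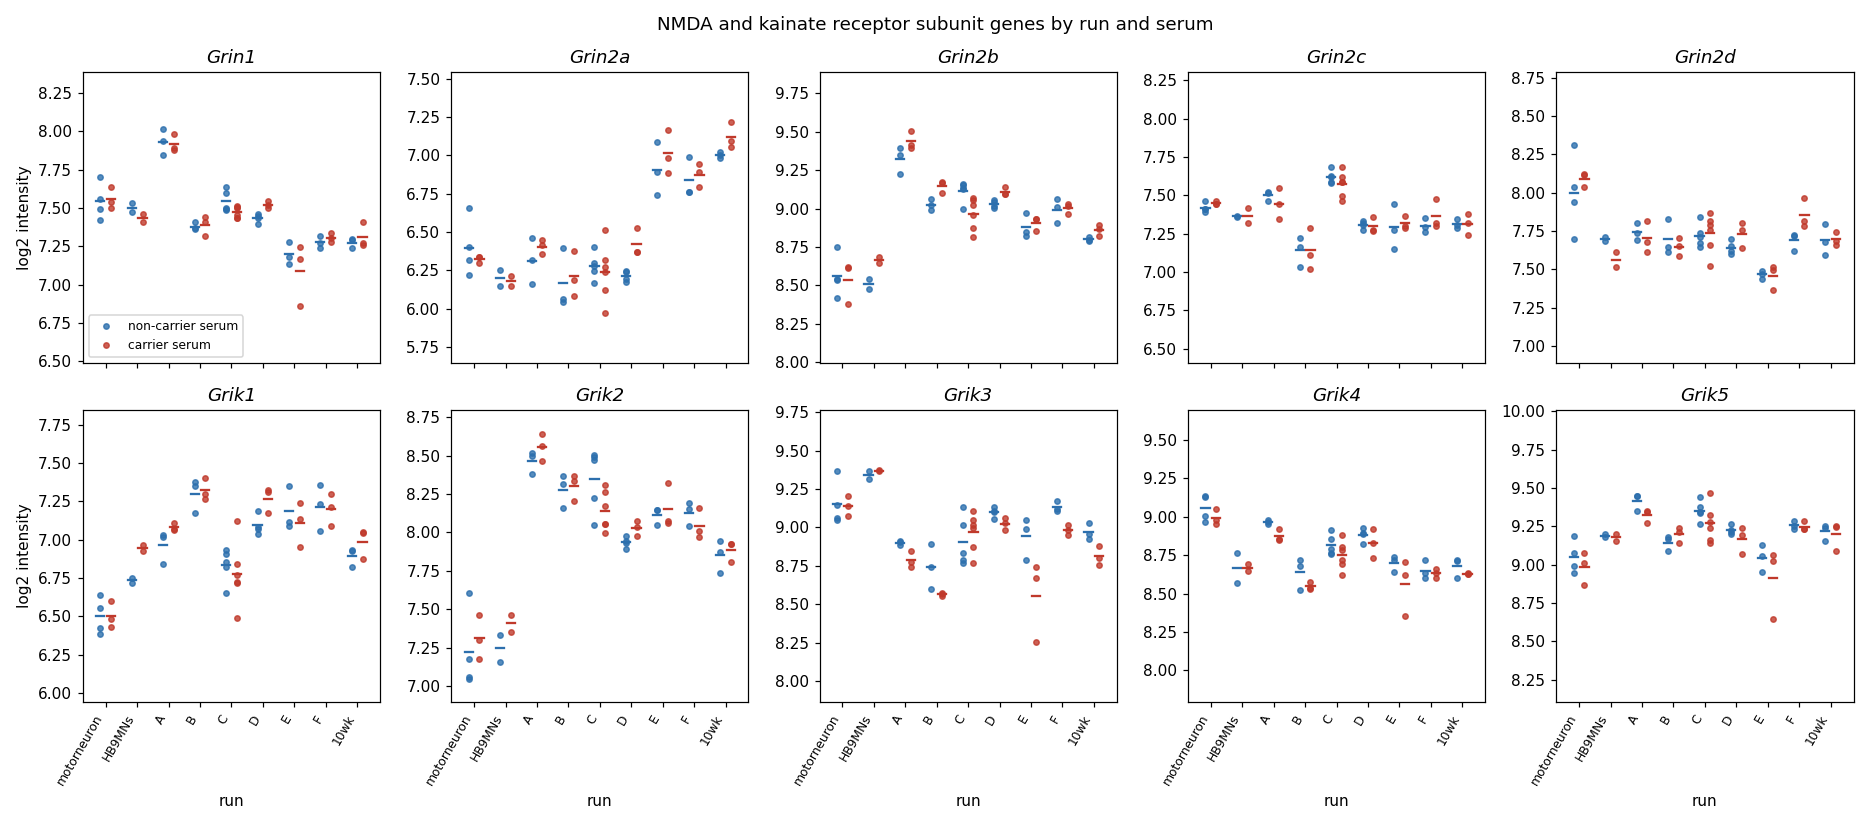
Log2 intensity (y axis, the same span in every panel) of the 10 subunit genes in the 9 runs (x axis), with 1 point per array, coloured by serum, and a bar at the mean of each serum in each run. Grin2a is higher in runs E, F and 10wk than elsewhere, Grik2 is lower in motorneuron and HB9MNs than elsewhere, and Grik3 lies lower with carrier serum in most runs.

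Among the NMDA receptor genes, Grin2a, the gene of the subunit that appears late in development, was split between 3 runs and the other 6. Its mean was 7.06 in run 10wk, 6.96 in run E and 6.86 in run F, and from 6.19 to 6.37 in the others. The lowest of the 18 arrays of the former, 6.74, was above the highest of the 41 arrays of the latter, 6.66, and within each set neighbouring runs differed by less than the within-run SD of 0.13. Here and below, a split of runs was placed at the largest gap between the run means of a gene. The share of all genes with sets of runs that do not overlap was not counted, so such splits are a description. The mean level of the 9 interneuron markers was 7.13, 6.94 and 7.21 in runs 10wk, E and F. In the other runs it was from 7.20 to 7.61, so the ranges overlapped. The members of that list differed, and Sim1 was highest in run 10wk, at 7.21. The part of these markers in the Grin2a levels was not tested.

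Grin1 and Grin2b were both highest in run A. The 6 arrays of that run had a Grin1 level of at least 7.84, against at most 7.70 on the other 53, and a Grin2b level of at least 9.23, against at most 9.18. Grin1 was lowest in run E, at a mean of 7.14, and Grin2b in motorneuron and HB9MNs, at 8.55 and 8.59. Run A also had the lowest mean level of the 6 motor neuron markers, 9.02, where the other runs had 9.20 to 9.37. Of these markers Mnx1, Isl1 and Chat were lowest in run A, Isl2 in motorneuron, Lhx3 in run E and Slc5a7 in HB9MNs. The mean level of the 9 interneuron markers was highest in run A, at 7.61, against 6.94 to 7.54 elsewhere. The part of these markers in the Grin1 and Grin2b levels was not tested. In the middle of the order most neighbours did not differ beyond the within-run SD: for Grin2b the means of runs B, D, C and F fell between 9.09 and 9.00.

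Grin2d, a subunit gene of the embryonic brainstem and spinal cord, was highest in motorneuron at 8.04 and lowest in run E at 7.46. The all-gene mean was also highest in motorneuron, at 7.46, and lowest in run E, at 7.27. For Grin2d the 7 runs in between, from 7.77 to 7.63, did not differ from their neighbours among these runs beyond the SD of 0.10. Grin2c was highest in run C at 7.59 and lowest in run B at 7.14. The arrays of the extreme runs overlapped with those of the remaining runs for both genes.

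Of the kainate receptor genes, Grik2 had the largest span, 1.25 on the log2 scale between the highest and the lowest run mean. It was highest in run A at 8.51 and lowest in HB9MNs at 7.33 and motorneuron at 7.26. The 11 arrays of the last 2 runs reached at most 7.61 and the other 48 were at 7.73 or above, so the sets did not overlap. This split too was placed at the largest gap, with no count over all genes. The titles of these 11 arrays begin with motorneuron or HB9MNs and those of the other 48 with HB9EBs. The part of whatever that wording stands for in the Grik2 levels was not tested. Grik1 was likewise lowest in motorneuron, at 6.50, and highest in run B, at 7.31. Grik3 had nearly the reverse order of Grik2, highest in HB9MNs at 9.36 and motorneuron at 9.15 and lowest in run B at 8.66. The mean level of the pan-neuronal markers was 12.02 in motorneuron and 12.13 in HB9MNs, against 11.90 to 12.03 elsewhere, and its part in these levels was not tested.

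Grik4 was highest in motorneuron at 9.03, followed by runs A, D and C at 8.92, 8.86 and 8.78. Its gap of 0.11 between motorneuron and run A stands beside all-gene means of 7.46 and 7.33 in these runs. The remaining 5 runs, from 8.67 to 8.59 for Grik4, did not differ from each neighbour beyond the SD of 0.077. Grik5 varied least, from 9.37 in run A to 8.98 in run E, a span of 0.39. Over the 9 run means, Pearson's r was 0.943 for Grin2b with Grik2 and -0.783 for Grik2 with Grik3. These values rest on 9 points that share whole batches of embryoid bodies and arrays, and are given as a description.

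Within runs, the arrays of a serum also deviated together for some members. After the mean of each run and serum was subtracted, the 10 pairs among Grin1, Grin2d, Grik3, Grik4 and Grik5, a set picked after the values were seen, had Pearson's r from 0.413 to 0.690 over 59 arrays and Spearman's rho from 0.390 to 0.712. Grik2 ran against these 5 genes, with r from -0.609 to -0.214 and rho from -0.586 to -0.193. Grin2b, Grik1 and Grik2 formed another set, with r from 0.498 to 0.548 for its 3 pairs. Without the arrays called by Grubbs' test the first set had r from 0.310 to 0.629, and the pairs of Grik2 with it -0.571 to -0.201. With run C parted into 2 blocks these ranges were 0.385 to 0.794 and -0.666 to -0.284, and without run C, over 48 arrays, 0.373 to 0.799 and -0.623 to -0.284.

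**Figure D3:**
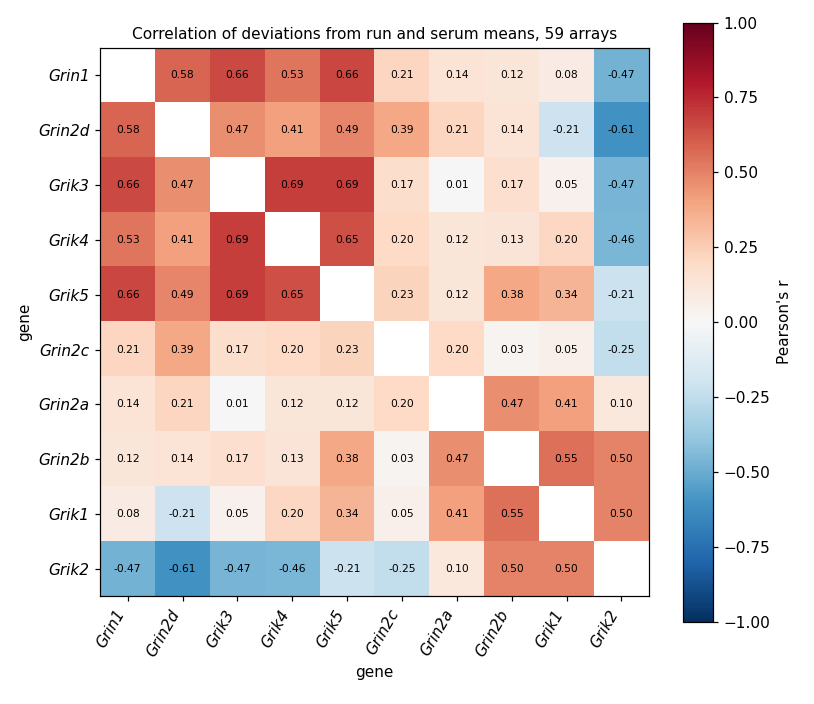
Pearson's r (colour and number) between the deviations of the 10 subunit genes (both axes) from the mean of their run and serum, over 59 arrays. The upper left block of Grin1, Grin2d, Grik3, Grik4 and Grik5 is positive, Grik2 is negative to all 5, and Grin2b, Grik1 and Grik2 are positive to each other.

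All genes of an array share its RNA sample and its hybridization, whose quality was not measured here. The first principal component of the deviations of all genes held 20.4% of their variance, and its r was -0.586 with Grin2d, 0.496 with Grik2, 0.422 with Grik1 and 0.018 with Grik3. Thus Grin2d and Grik2, the pair with the most negative r, were also those most related to that component, in opposite directions, and Grik3 was hardly related to it.

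The genes whose deviations were most like those of each member, out of all genes measured, differed between the members. For Grik2 they were Bai3 (r 0.884), an adhesion receptor gene, Neto2 (r 0.864), which encodes an auxiliary subunit of kainate receptors, and Mpp5 (r 0.856). For Grik3 they were Lmf1 (r 0.874), Cacna1h (r 0.849), the gene of a T-type calcium channel, and Abcc8 (r 0.847). Cacna1h was also among the 3 of Grin1, with Men1 and Cadm3, at r from 0.803 to 0.816.

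Grik4 was most like Npdc1, Mau2 and Atg9a, at r from 0.746 to 0.767. Grik5 was most like Abca3, Atp13a2 and Cacng4, the last encoding an auxiliary AMPA receptor subunit, at r from 0.843 to 0.851. Grin2b was most like Unc79, Hecw1 and Sorbs2, at r from 0.789 to 0.810, and Grin2d most like Hdac7, Snph and Pitpnm2, at r from 0.815 to 0.835. The likeness was weaker for Grik1 (Snx19, Trpc5 and Trappc10, 0.681 to 0.691), Grin2a (Tll2, Rims1 and Sash1, 0.640 to 0.666) and Grin2c (Lactbl1, Tmed1 and BC002230, 0.613 to 0.618). None of these genes passed the test of the serum difference.

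In the surrounding pathway, few genes passed the test of the serum difference. Of the 7 measured genes that supply or remove the NMDA receptor co-agonists glycine and D-serine, 2 fell with carrier serum. Over all genes, 323 of 19613 fell. The list was chosen with earlier results of these data known, so its count is a description. Slc6a9, which encodes the glycine transporter GlyT1, was 8.96, 9.63 and 10.6 at the lowest, median and highest carrier array and 8.88, 9.82 and 10.9 at the corresponding non-carrier arrays, and fell by 0.24 on the log2 scale (SE 0.055, adjusted p 0.0104). Shmt2, which encodes the mitochondrial enzyme that interconverts serine and glycine, was 9.63, 10.1 and 10.9 at the corresponding carrier arrays and 9.74, 10.4 and 11.2 at the non-carrier arrays, and fell by 0.24 (SE 0.052, adjusted p 0.00592). Both differences were larger than that of any receptor subunit, and they held in 8 of 9 runs for Slc6a9 and in 7 of 9 for Shmt2, although the ranges overlapped.

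Of 9 measured genes of glutamate transport and release, Slc1a2 fell, the gene of the glial glutamate transporter GLT-1. It was 8.21, 8.53 and 8.98 at the lowest, median and highest carrier array and 8.18, 8.61 and 9.01 at the corresponding non-carrier arrays, with a difference of -0.068 (SE 0.018, adjusted p 0.0307) that was negative in 9 of 9 runs. None of the 11 measured astrocyte and oligodendrocyte lineage markers passed, and the mean level of that list lay between 7.13 and 7.63 on carrier and between 7.14 and 7.62 on non-carrier arrays. Slc1a2 did not pass under 10 of 23 alternative settings, Slc6a9 under 4 and Shmt2 under 1.

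None of the 7 other measured ionotropic glutamate receptor subunit genes passed, and their median difference was 0.064, against 0.0015 over the NMDA and kainate receptor genes. The AMPA receptor genes Gria3 and Gria4 were nearest, with differences of 0.091 (adjusted p 0.0603) and 0.077 (adjusted p 0.0679), followed by the NMDA receptor gene Grin3a, at 0.090 (adjusted p 0.132). These lay on the side of higher levels with carrier serum, and Grik3, Grik4 and Grik5 on the other. None passed among 12 measured auxiliary subunit and scaffold genes (median 0.0092), 5 metabotropic glutamate receptor genes (median 0.029) and 10 genes of calcium signalling downstream of NMDA receptors (median 0.014). Neto2 had a difference of 0.059 (adjusted p 0.306), Dlg3 one of -0.043 (adjusted p 0.155) and Grina, a gene named for a resemblance to NMDA receptor subunits, one of -0.083 (adjusted p 0.119).

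**Figure D4:**
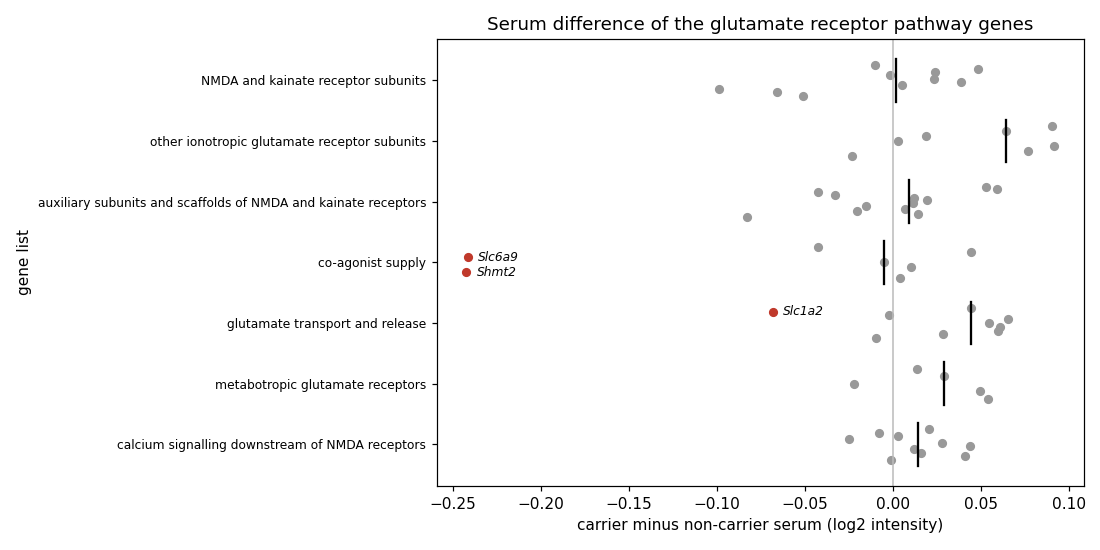
Carrier minus non-carrier difference in log2 intensity (x axis) of the measured genes of 7 lists (y axis), with 1 point per gene, red and named where the adjusted p was under 0.05, and a bar at the median of each list. Slc6a9, Shmt2 and Slc1a2 are the red points, all below 0, and no receptor subunit gene is among them.

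Some neuronal markers passed the test of the serum difference. Slc5a7, the choline transporter gene of cholinergic neurons, rose by 0.15 (adjusted p 0.0410), as the 1 of 6 measured motor neuron markers that passed. Of 6 measured pan-neuronal markers Snap25 rose by 0.074 (adjusted p 0.0166), Stmn2 by 0.061 (adjusted p 0.0400) and Nefl by 0.058 (adjusted p 0.0250). Over all genes, 457 of 19613 passed in either direction, and 323 of those that passed fell. The marker lists were chosen with earlier results of these data known, so their counts are a description. The mean level of the motor neuron list lay between 8.96 and 9.46 on carrier and between 8.95 and 9.42 on non-carrier arrays, and that of the pan-neuronal list between 11.9 and 12.2 and between 11.8 and 12.1. Neither of these lists moved as a whole. Of the motor neuron markers 3 had positive and 3 negative differences, among the latter Lhx3 at -0.086 (adjusted p 0.105), and of the pan-neuronal markers 4 were positive and 2, Tubb3 and Elavl3, negative. The 4 calls were lost under 10 of 23 alternatives for Slc5a7, 6 for Snap25, 11 for Stmn2 and 9 for Nefl, and all 4 with the arrays centred on their median (adjusted p from 0.0602 to 0.153). Of the markers, only the 4 covariate genes named above were entered in fits of the subunit differences. Their values for Grik3, Grik4 and Grik5 are given there. The part of the other markers in the subunit differences was not tested. No gene passed among 7 measured progenitor markers, 9 interneuron markers, 7 pluripotent cell markers and 8 mesoderm, endoderm and blood cell markers. In the last of these lists all 8 genes, of which 3 were above the background band, had higher levels with carrier serum. Their median difference was 0.070, against 0.016 over all genes, of which 11984 of 19613 were higher.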

How the data were processed

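The deposited values are gene-level intensities on a linear scale, which per the labels the authors made with RMA and Affymetrix Expression Console; the methods name RMA in aroma.affymetrix, the mean of all exons of a gene, and removal of outlying arrays by Grubbs' test. Averaging over exons hides changes in single isoforms. Whether exons were averaged on a log scale and the genome build are not given in the sources used here. The number of arrays limits the precision. Values were taken as log2 with 0 added and were not renormalized. No gene was filtered out. Serum differences, run differences and the serum effect by run were fitted across 19613 genes in R 4.3.3 by limma 3.58.1 (functions lmFit and eBayes). The run was a fixed block, tests were two-sided, and p-values were adjusted by Benjamini-Hochberg over every gene, with a threshold of 0.05. The labels name no batch, so runs were read from array titles. Members and gene lists were chosen with earlier results of these data known. Named genes were all members, called genes of the pathway lists or else at most 3 per list, markers, and the 3 genes most similar to each member. Alternatives changed the block, covariates, scaling, pseudocount (64), filters and array weights, or left out each run. Leaving out the 2 arrays called by Grubbs' test was chosen after the data were seen. The procedure was tested on simulated data. Promoters were from RefSeq, GRCm38.p6.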

Additional observations from a re-analysis of the deposited data

Results flagged for a closer look

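Among the 5 non-carrier arrays of run C, 1 array had the lowest Grin2b level, 9.00 on the log2 scale, and the nearest other array stood at 9.13. This gap was 0.786 of the whole range of the 5 arrays. The same array was called by Grubbs' test for its low correlation with its run over all genes. The check was made for 4 groups of arrays in each of the 10 genes, 40 in all, and chance alone marks about 1 in 20 such groups.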

How the results depend on the processing

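Under 14 of 23 alternatives none of the 10 members passed the test of the serum difference, as in the fit reported. The count was 2 with genes below the median left out (of 8 members then tested, since Grin2a and Grik1 were dropped) and with array weights. It was 1 with the replicate block, with a correction for the levels of Olig2, Mnx1, Isl1 and Lhx3 in addition to the run, with arrays centred on their median, with a pseudocount of 64, with genes below the background band left out, without HB9MNs and without run C. The paired fit, with the replicate block, called Grik4 (-0.069, adjusted p 0.0434), but of 8 pairs of arrays with the same number in the titles only 1 had deviations correlated above 0.1, so the numbers were not taken as pairs. With the correction for these 4 genes Grin2d was called (0.089, adjusted p 0.0135), and with array weights Grik3 (-0.081, adjusted p 0.0243) and Grik1 (0.082, adjusted p 0.0325). The number of all genes that passed also changed with the setting. It was 457 in the fit reported, 513 with the replicate block and 314 with the run as a random block. Whether the members gained more calls than all genes did was not tested.

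Signs turned for members with small differences. Without the run block Grin2c was 0.0061, and no gene passed (adjusted p 0.995 for every member). With the 4 genes as covariates in addition to the run Grin1 was 0.044, Grin2c 0.019, Grik2 -0.042 and Grik5 0.0050, and with them in place of the run Grin1 was 0.059, Grin2c 0.070, Grik1 -0.017 and Grik5 0.0076. With array weights Grin1 was 0.0049 and Grin2c 8.0e-04, and with median centring Grik2 was -0.0022. Grik2 was -0.0061 without motorneuron, -0.0065 without HB9MNs, -0.0047 without run A, -0.0065 without run D and -0.011 without the 2 arrays called by Grubbs' test. Grin1 was 0.0034 without run C, 8.1e-04 without run E and 0.0055 without those arrays, and Grin2c was 0.0040 without run A and 0.0082 without run C. The causes were not tested. Grik3 and Grik4 were lower with carrier serum under all 23 alternatives, from -0.13 to -0.054 and from -0.077 to -0.014. Without run C, 1601 of all genes passed, against 457 with all runs, and fewer passed without run D. The test between runs called all members tested and the test of a serum effect by run none, under all 15 alternatives of each.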
